A study of Mus musculus with 12 samples.

Results

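The complement fragment C3a was added to cultured mouse islets that had received no fatty acid stress, and these islets were compared with vehicle islets. The comparison rests on 6 of the 12 messenger RNA sequencing libraries of the series: 3 of vehicle and 3 of vehicle with C3a. All 15794 genes that passed a filter on low counts entered it, out of 22141 genes with counts. The islets came from male wild-type mice aged 10 to 12 weeks and were kept in lots of about 120 islets per condition. In each condition, replicate 1 was sequenced in batch 1 and replicates 2 and 3 in batch 2. Replicates 2 and 3 carry a date tag and replicate 1 carries none. A vehicle library was set against the C3a library of the same number, and these are called pairs 1, 2 and 3. The other 6 libraries, palmitate and palmitate with C3a, serve below as a second reading of C3a that shares no library with the first. The labels give no dose, exposure time or species of origin for C3a, and nothing in them tells whether libraries of 1 group came from separate animals or cultures. Each p-value therefore reflects spread among these libraries, which may be technical. Counts summed to between 22216420 and 49375454 per library.

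C3a is released when the complement protein C3 is cleaved. It is bound by C3ar1, a receptor that couples to inhibitory G proteins and is found on myeloid cells and on insulin-producing beta cells. In beta cells the receptor is known for raising cytosolic calcium and ATP and for supporting insulin secretion, and adipsin (Cfd) is the protease that drives C3 cleavage through the alternative pathway. Islets are mixed tissue: beta cells predominate beside glucagon, somatostatin and pancreatic polypeptide cells, with endothelial cells, macrophages and fibroblasts among them and some exocrine tissue carried over from isolation.

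No gene passed the threshold in unstressed islets (0 of 15794 genes, 0%, in either direction). The test was edgeR's quasi-likelihood F test, and the threshold was a p of 0.05 after Benjamini and Hochberg's adjustment. The lowest adjusted p was 0.427. At an unadjusted p under 0.05 there were 511 genes (3.24%), 263 higher (1.67%) and 248 lower (1.57%) with C3a. DESeq2, run on the same counts, called 5 genes and had 277 under an unadjusted 0.05, while limma-voom called 0 and had 405. In the same fit of all 12 libraries, palmitate against vehicle gave 4612 called genes (29.2%), so the fit made calls at 3 libraries per group where differences were large.

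The data bounded most effects closely for expressed genes. For 10959 genes (69.4%) the 95% interval of the C3a difference lay within 0.5 on the log2 scale of no difference, and for 13272 (84%) within 1. Among the 7592 genes at 10 to 100 CPM (library counts scaled to a common depth), 96.6% lay within 0.5 and the interval reached a median of 0.14 to either side of the estimate. Among the 2435 genes under 1 CPM it reached a median of 1.09, so a log2 difference of 1 in such a gene was generally not detectable at this depth. Only 260 genes had an estimate beyond 1 in either direction, and 213 of them were under 1 CPM. A gene listed below without a call is therefore given with its values, its standard error or interval, and no claim of change.

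**Figure D1:**
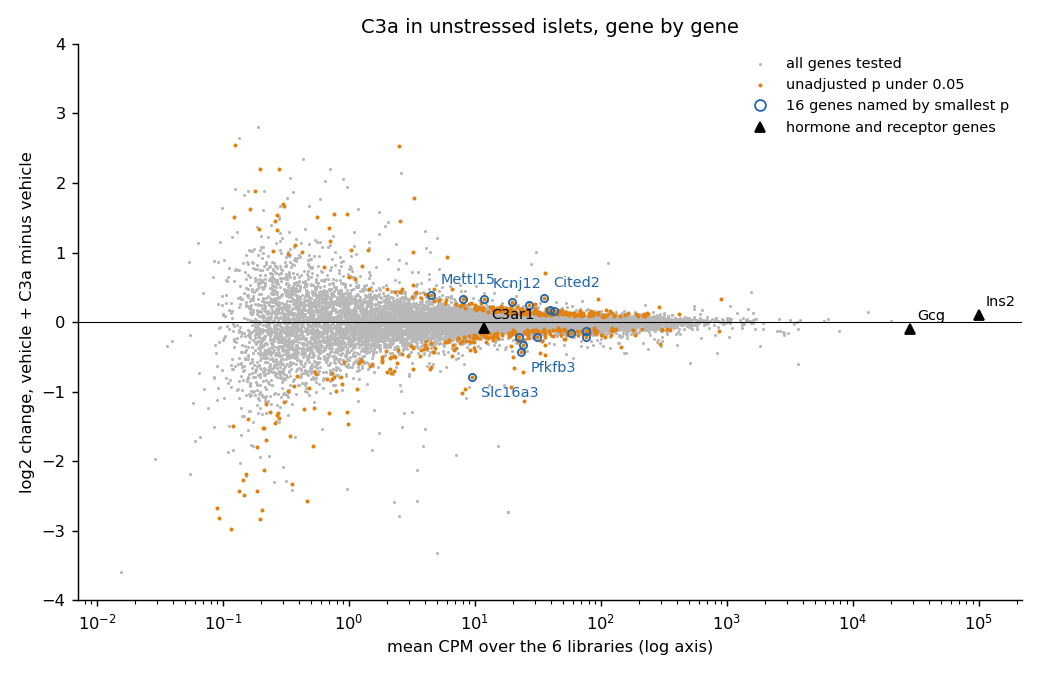
Each point is a gene: the log2 difference between vehicle with C3a and vehicle is plotted against the mean CPM of the 6 libraries on a log axis, and 20 genes beyond 4 on the vertical axis are not drawn. The cloud narrows around 0 as expression increases, and Ins2, Gcg and C3ar1 lie within it.

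In pairs 2 and 3 the members were slightly further apart than 2 libraries of 1 condition and batch. Batch 1 holds 1 library per condition, so pair 1 has no such distance to be set against. Over 13379 genes with at least 1 CPM on average, the root mean square log2 distance between C3a and vehicle was 0.33, 0.32 and 0.29 in pairs 1, 2 and 3. Vehicle replicates 2 and 3 were 0.27 apart, and so were the C3a replicates 2 and 3. Palmitate and vehicle libraries of the same number were 0.48, 0.41 and 0.43 apart. Replicate 1 stood away from the others: vehicle replicate 1 was 0.74 and 0.73 from vehicle replicates 2 and 3, which is why C3a was read within pairs. Among all 12 libraries, the nearest to vehicle replicate 2 was vehicle replicate 3 and the nearest to C3a replicate 2 was C3a replicate 3, whereas vehicle and C3a replicate 1 were nearest to each other.

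The receptor and its signalling genes were present, and most estimates were near 0. C3ar1 (ENSMUSG00000040552.8, chromosome 6, 122847138 to 122856161, minus strand) had 12.5, 11.5 and 12.2 CPM in vehicle replicates 1 to 3 and 12.7, 11.2 and 10.4 CPM with C3a. The groups overlapped, and the log2 difference was -0.08 ± 0.16 (SE; 95% interval -0.44 to 0.27). C5ar1, the receptor for the related fragment C5a, had 3.31, 3.12 and 3.16 CPM in vehicle and 2.48, 2.23 and 2.70 CPM with C3a. All 3 vehicle libraries lay above all 3 C3a libraries, at a log2 difference of -0.38 ± 0.19 (unadjusted p = 0.0776). In palmitate islets its estimate had the other sign, 0.46 ± 0.19. Mapk3, which encodes the kinase ERK1 downstream of the receptor, had the smallest p of the list. It stood at 186, 175 and 189 CPM in vehicle and 197, 195 and 204 CPM with C3a, a log2 difference of 0.12 ± 0.04 (unadjusted p = 0.0129). Of the 37 tested genes for receptors, G proteins, phospholipases, kinases and regulators of this pathway, 0 were called, 1 was higher and 0 lower at an unadjusted p under 0.05, and the median log2 difference was 0.01 against -0.003 over all genes tested. The ligand's own gene C3 had 34.8, 21.2 and 11.1 CPM in vehicle and 9.93, 13.5 and 12.1 CPM with C3a. Its highest value belonged to vehicle replicate 1, and the difference of -0.90 ± 0.69 had an interval from -2.57 to 0.76. Cfd had 2 counts in all 12 libraries together and was not tested, so nothing can be said of it at this depth.

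Hormone genes showed that the tissue was islet and gave small positive values for insulin. Ins2 had 112685, 89440 and 88166 CPM in vehicle and 118054, 94917 and 97786 CPM with C3a. The C3a library was above its vehicle partner in each pair, and the log2 difference was 0.10 ± 0.10. Libraries of the same condition in different batches lay further apart than the members of any pair. Batch and replicate cannot be told apart in that gap. Ins1 had 48644, 48426 and 46822 CPM in vehicle and 51134, 52289 and 54007 CPM with C3a, with all C3a libraries above all vehicle libraries and a log2 difference of 0.13 ± 0.13 (95% interval -0.17 to 0.42). The beta cell peptide gene Iapp differed by 0.02 ± 0.07. Glucagon (Gcg) differed by -0.10 ± 0.06, somatostatin (Sst) by 0.13 ± 0.06, and pancreatic polypeptide (Ppy) by 0.43 ± 0.27. In bulk islets a shift in the number of cells of a type and a shift in RNA per cell cannot be told apart.

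The beta cell identity list leaned to higher values by a narrow margin. Of its 31 tested genes 0 were called, 2 were higher and 0 lower at an unadjusted p under 0.05, and 27 had a positive estimate, but the median was 0.03. Over all genes tested 1.67% were higher at that limit, and 7678 of 15794 had a positive estimate. In 12 of the 31 the difference was positive in all 3 pairs (13.7% of all genes tested were higher in all 3 pairs). Nkx6-1, a transcription factor required for mature beta cells, had 137, 346 and 339 CPM in vehicle and 176, 391 and 364 CPM with C3a. The step between batches was larger than the step with C3a, and the log2 difference was 0.22 ± 0.09 (unadjusted p = 0.0415). Foxa2, which opens pancreatic enhancers, had 63.7, 98.98 and 110 CPM in vehicle and 75.8, 109 and 114 CPM with C3a (0.14 ± 0.06). Pcsk1n, an inhibitor of prohormone cleavage, was the insulin granule gene with the smallest p, at 195, 1115 and 1211 CPM in vehicle and 324, 1262 and 1318 CPM with C3a (0.34 ± 0.12). Of the 26 granule and exocytosis genes 1 was higher and 0 lower at an unadjusted p under 0.05. Of 36 glucose metabolism and secretion coupling genes 0 were higher and 2 lower, Slc2a1 and Pfkl, both of glycolysis.

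Among genes at 5 CPM or more with 1 direction in all 3 pairs, the 8 with the smallest p on the higher side had differences of 0.16 to 0.39 on the log2 scale, and edgeR's adjusted p was 1.00 for each. Cited2 (ENSMUSG00000039910.10, chromosome 10, 17723218 to 17725674, plus strand), which encodes a coregulator that competes with HIF-1 for the coactivator p300, had 21.3, 36.8 and 37.0 CPM in vehicle and 34.0, 43.4 and 41.4 CPM with C3a. The C3a library was above its partner in every pair, most in pair 1, while C3a replicate 1 lay below vehicle replicates 2 and 3. The log2 difference was 0.35 ± 0.09. Kcnj12 (ENSMUSG00000042529.14, chromosome 11, 61022564 to 61071131, plus strand) encodes an inwardly rectifying potassium channel. It had 9.02, 10.6 and 11.6 CPM in vehicle and 11.8, 13.6 and 13.7 CPM with C3a (0.33 ± 0.08). Rhbdf1 (ENSMUSG00000020282.18, chromosome 11, 32209585 to 32222300, minus strand) encodes an inactive rhomboid that controls the traffic of the sheddase ADAM17. It had 8.89, 6.14 and 6.71 CPM in vehicle and 10.1, 7.97 and 8.91 CPM with C3a (0.33 ± 0.08). The mitochondrial RNA methyltransferase gene Mettl15 differed by 0.39 ± 0.11, the RNA exosome subunit gene Exosc4 by 0.29 ± 0.08 and F8a by 0.24 ± 0.07. Dirc2, a lysosomal transporter gene, differed by 0.17 ± 0.05, and Snrpa, of the U1 splicing particle, by 0.16 ± 0.04.

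The 8 with the smallest p on the lower side had differences of -0.13 to -0.79, again with an edgeR adjusted p of 1.00. Slc16a3 and Pfkfb3, the glycolytic pair among them, had the lowest values and are described beside the hypoxia list. Ahnak (ENSMUSG00000069833.13, chromosome 19, 8989284 to 9076914, plus strand), a very large scaffold protein gene, had 30.9, 24.5 and 24.3 CPM in vehicle and 26.3, 21.2 and 16.6 CPM with C3a. C3a replicate 1 was above vehicle replicates 2 and 3, so the groups overlapped although each pair went the same way, and the log2 difference was -0.33 ± 0.07. Igfbp3 (ENSMUSG00000020427.11, chromosome 11, 7206086 to 7213923, minus strand) encodes a carrier of insulin-like growth factors. It had 35.5, 105 and 105 CPM in vehicle and 33.8, 85.9 and 88.8 CPM with C3a (-0.21 ± 0.06), and its 2 batches were further apart than its conditions. The steroid dehydrogenase gene Hsd3b2 differed by -0.21 ± 0.06, the oxysterol-binding protein gene Osbpl6 by -0.21 ± 0.06, the zinc finger gene Zfp330 by -0.15 ± 0.04, and the general transcription factor gene Sp1 by -0.13 ± 0.04.

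**Figure D2:**
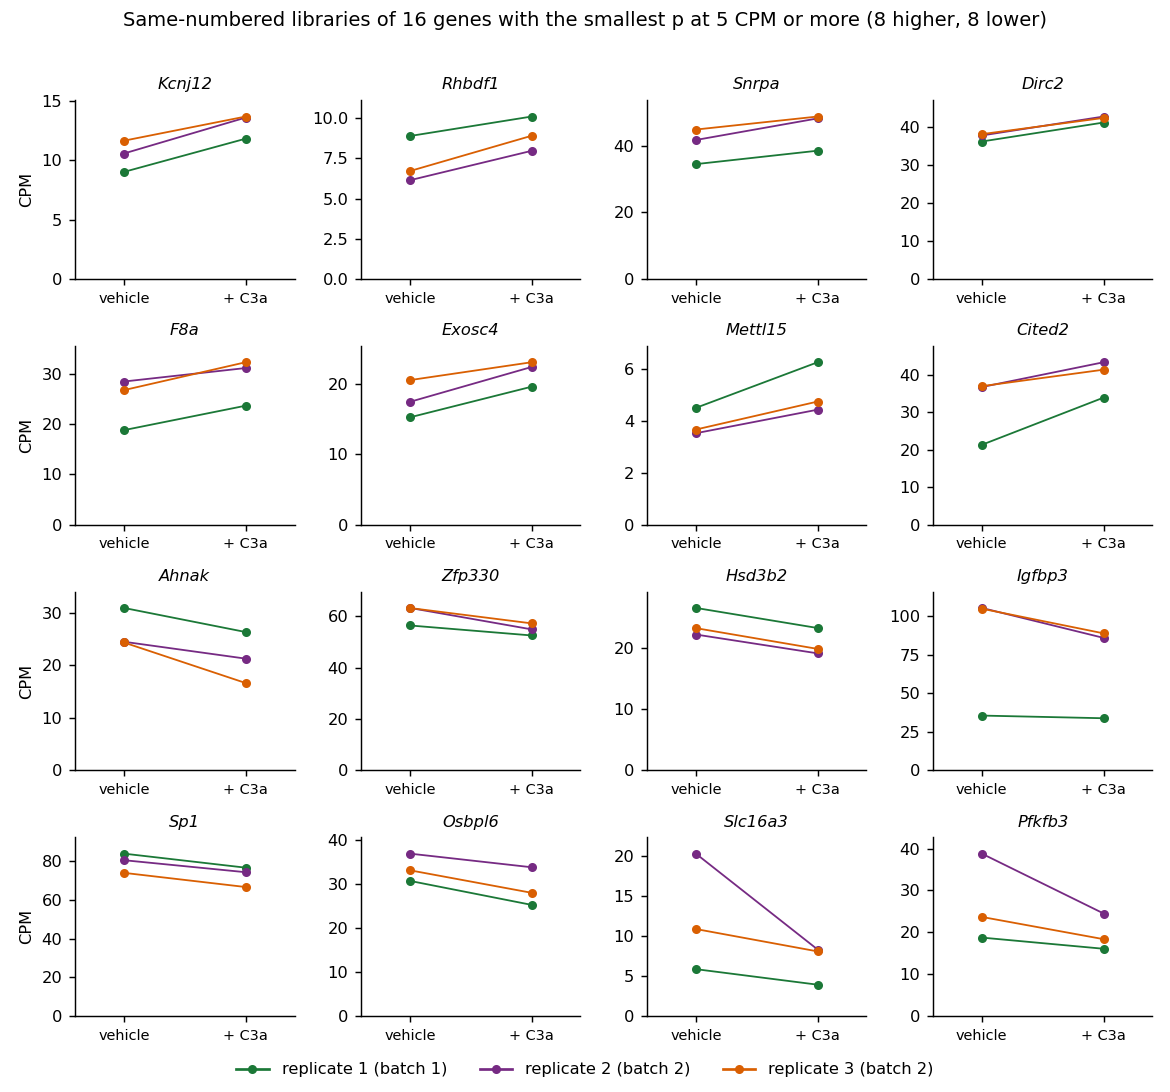
CPM of 16 genes in vehicle and in vehicle with C3a, with a line joining the libraries of each pair (green for replicate 1 of batch 1, purple and orange for replicates 2 and 3 of batch 2). All lines of a gene slope 1 way because the genes were chosen for that; the step from 20.3 to 8.32 CPM of Slc16a3 in pair 2 is the largest in proportion.

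The hypoxia and glycolysis list had the fitted median furthest from 0 among lists with over 10 tested members. Cells short of oxygen stabilise HIF-1, which binds a short core sequence at its targets and turns on glucose uptake, glycolysis and lactate export. The promoters of the list members Pfkfb3 and Slc2a1 are printed with that of Slc16a3, which is outside the list. They are examples of genes with unadjusted p-values under 0.05 that act in glycolysis, glucose uptake and lactate export. Pfkl, of which the same is true, and the list members Kdm3a and Egln3, also under 0.05, are not printed. Each is a RefSeq window of 300 bases on build GRCm38.p6, from 250 bases before the start of transcription to 50 after it, 5′ to 3′ on the strand of the gene. Capitals mark the HIF core ACGTG or its variant GCGTG, read on either strand (CACGT and CACGC on the other strand). The windows are chr11:120948817-120949116 on the plus strand for Slc16a3, chr2:11553880-11554179 on the minus strand for Pfkfb3, the first of its 2 RefSeq starts, and chr4:119108495-119108794 on the plus strand for Slc2a1.
Slc16a3: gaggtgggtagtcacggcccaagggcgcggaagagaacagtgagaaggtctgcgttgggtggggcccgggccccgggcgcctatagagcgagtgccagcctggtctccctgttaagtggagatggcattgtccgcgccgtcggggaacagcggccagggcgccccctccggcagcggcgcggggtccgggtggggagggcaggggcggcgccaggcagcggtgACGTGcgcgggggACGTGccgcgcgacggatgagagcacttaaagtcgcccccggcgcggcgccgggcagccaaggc
Pfkfb3: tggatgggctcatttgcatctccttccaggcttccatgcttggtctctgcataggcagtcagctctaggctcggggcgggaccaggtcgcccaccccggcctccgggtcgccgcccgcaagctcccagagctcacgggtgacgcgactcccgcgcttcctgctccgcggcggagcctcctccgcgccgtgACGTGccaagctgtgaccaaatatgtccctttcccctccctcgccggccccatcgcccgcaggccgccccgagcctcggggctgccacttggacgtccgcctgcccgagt
Slc2a1: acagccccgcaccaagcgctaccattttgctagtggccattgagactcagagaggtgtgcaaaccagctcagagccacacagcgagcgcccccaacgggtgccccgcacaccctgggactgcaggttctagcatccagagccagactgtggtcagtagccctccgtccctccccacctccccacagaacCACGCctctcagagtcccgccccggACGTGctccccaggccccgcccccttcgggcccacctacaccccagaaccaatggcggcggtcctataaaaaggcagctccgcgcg
Slc16a3 holds 2 copies of ACGTG close to the start, Pfkfb3 holds 1, and Slc2a1 holds 1 with 1 GCGTG. Of those not printed, Kdm3a holds 1 GCGTG in 1 of its 3 windows and no ACGTG, and Egln3 holds 1 ACGTG. At least 1 of the cores was in 32 of 41 promoter windows (78%) of the 28 list genes matched by symbol, out of 32 tested. That share was 58.9% in the 14991 windows of all tested genes and 43.8% in all 32851 windows, and ACGTG alone was in 53.7%, 24% and 19.6%. These shares count windows, and a gene can have several. The list was chosen for hypoxia and glycolysis, so its share of cores tells nothing of C3a. A match in the letters is a description and does not show that the site is bound.

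Pair 2 set much of the size of these values. Slc16a3 (ENSMUSG00000025161.16, chromosome 11, 120948480 to 120960868, plus strand), the lactate exporter MCT4, had 5.87, 20.3 and 10.9 CPM in vehicle and 3.93, 8.32 and 8.09 CPM with C3a. Each C3a library was below its partner, the drop in pair 2 was the steepest, and the log2 difference was -0.79 ± 0.20 (95% interval -1.24 to -0.34). Pfkfb3 (ENSMUSG00000026773.19, chromosome 2, 11471433 to 11554077, minus strand), which makes the activator of phosphofructokinase, had 18.7, 38.8 and 23.7 CPM in vehicle and 16.1, 24.5 and 18.4 CPM with C3a (-0.43 ± 0.11). Slc2a1, the glucose transporter GLUT1, had 26.3, 62.3 and 39.7 CPM in vehicle and 23.5, 34.8 and 30.9 CPM with C3a (-0.48 ± 0.17). Vehicle replicate 2 held the highest value of all 6 libraries in each of these genes. Pgk1 and Ldha, later enzymes of glycolysis, showed the same library: Pgk1 had 221, 527 and 277 CPM in vehicle and 246, 267 and 253 CPM with C3a, and Ldha had 49.5, 90.9 and 45.2 CPM against 44.1, 42.7 and 42.5 CPM. Pgk1 has near-identical copies in the genome, so the division of its reads is uncertain. The oxygen-sensing hydroxylase gene Egln3 had 1.65, 7.53 and 2.99 CPM in vehicle and 0.677, 3.05 and 3.38 CPM with C3a.

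Over the 32 tested members 0 were called, 0 were higher and 4 lower at an unadjusted p under 0.05 (Pfkfb3, Kdm3a, Slc2a1 and Egln3), and 29 had a negative estimate. Over all genes tested 1.57% were lower at that limit, and 8116 of 15794 had a negative estimate. The median log2 difference of the list was -0.32, and by pair it was -0.03, -0.73 and -0.13. In 15 members the difference was negative in all 3 pairs, where 14.7% of all genes were. The summed level of the list was 1702, 3452 and 2348 CPM in vehicle and 1724, 2205 and 2159 CPM with C3a. Vehicle replicate 2 stood above the rest of these libraries and pair 1 was level. Replicate 2 was also the highest in palmitate islets, at 3281, 4615 and 3549 CPM without and 2878, 4348 and 2748 CPM with C3a. Without vehicle replicate 2 the median was -0.14, without C3a replicate 2 it was -0.14, and without all libraries numbered 2 it was -0.09. In palmitate islets the list had a median of -0.20 with C3a, and 27 of 32 members had a negative estimate, where 7880 of all 15794 genes did. The parts of vehicle replicate 2 and C3a replicate 2 beyond these values were not tested.

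Inflammatory genes were mostly lower with C3a in pair 1 and mostly higher in pair 3, with pair 2 nearer to all genes. Batch 1 holds only pair 1, so batch and pair cannot be told apart. The NF-kB and inflammatory list holds cytokines, chemokines and NF-kB subunits and inhibitors. In pair 1 it was lower with C3a in 28 of 34 genes, with a median log2 difference of -0.56, whereas in pairs 2 and 3 it was higher in 20 and 24 genes, with medians of 0.07 and 0.29. Over the fit of all pairs 0 of the 34 were called, 3 were higher and 1 lower at an unadjusted p under 0.05 (Nos2, Cxcl10 and Nfkbib, an NF-kB inhibitor gene, and Lcn2), and the median was 0.02. Over all genes tested 50.8%, 50.1% and 52% were lower in pairs 1, 2 and 3, against 82.4%, 41.2% and 29.4% of the list. At an unadjusted p under 0.05 in the fit, 1.67% of all genes were higher and 1.57% lower. Nos2, the inducible nitric oxide synthase that cytokines turn on in beta cells and macrophages, had 1.45, 0.326 and 0.421 CPM in vehicle and 0.406, 3.65 and 8.69 CPM with C3a. The 2 highest values were C3a libraries of batch 2, while in batch 1 the vehicle library was the higher. Its fitted log2 difference was 2.53 ± 1.05 (unadjusted p = 0.0457, edgeR adjusted p = 1.00). In batch 2 alone it was 3.97 with an edgeR adjusted p of 0.0162, and Cxcl1 and Steap4 also passed there (adjusted p = 0.0162 and 0.015). That fit holds replicates 2 and 3 alone, so 2 libraries per group. Cxcl1, a neutrophil-attracting chemokine, had 5.46, 0.306 and 0.304 CPM in vehicle and 0.451, 3.05 and 4.60 CPM with C3a. Steap4, a metalloreductase induced by inflammatory cytokines and outside the lists, was singled out after its values were seen. Its vehicle libraries held 12.8, 1.02 and 1.05 CPM, and its C3a libraries 0.677, 5.81 and 9.86 CPM. In both, vehicle replicate 1 had the highest value of the 6 and the C3a libraries of batch 2 came next, so the groups overlapped. In palmitate islets Nos2 had 0.316, 0.243 and 0.140 CPM without and 0.406, 0.488 and 0.555 CPM with C3a (1.09 ± 1.25). Cxcl1 had 0.672, 0.648 and 1.17 CPM without and 1.33, 0.460 and 1.07 CPM with C3a there. Steap4 had 1.38, 1.05 and 1.17 CPM without and 1.96, 1.38 and 1.74 CPM with C3a there. Nos2, Cxcl1 and Steap4 were the only genes at 5 CPM or more in a library that were over 2-fold lower in pair 1 and over 2-fold higher in pairs 2 and 3, and 0 such genes had the opposite order. With no limit on CPM, 10 genes had this order and 6 the opposite one.

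A few genes, picked after their values were seen, were highest in vehicle replicate 1. Lcn2, an iron-binding acute phase protein gene, had 45.6, 22.3 and 11.8 CPM in vehicle and 13.4, 13.5 and 10.7 CPM with C3a (-0.94 ± 0.33, unadjusted p = 0.0268). The acute phase list member Saa3 had 12.6 CPM in vehicle replicate 1 and at most 0.361 CPM in the other 5 libraries. The matrix protease gene Mmp3 had 14.1 CPM there against at most 0.398, and the immunoglobulin heavy chain gene Ighm 333 CPM against at most 0.180. These 3 genes were at least 10 times higher in vehicle replicate 1 than in any of the other 11 libraries, and no other of the 6 libraries had such a gene at 10 CPM or more. Defining lymphocyte markers were low throughout, with a summed list level of 9.2 CPM in vehicle replicate 1 and 4.7 to 6.1 CPM in the other 5 libraries. Cxcl10, an interferon-induced chemokine, had 2.15, 1.06 and 0.632 CPM in vehicle and 4.20, 1.09 and 6.26 CPM with C3a (1.46 ± 0.56). The interferon-stimulated list as a whole had 0 of 34 genes at an unadjusted p under 0.05 and a median of -0.004. Complement components and regulators had 0 of 31 genes at an unadjusted p under 0.05 and a median of -0.04. In pair 1, 27 of the 31 were lower with C3a, where 50.8% of all genes were. The list median was -0.29 in that pair, against 0.005 and 0.07 in pairs 2 and 3.

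**Figure D3:**
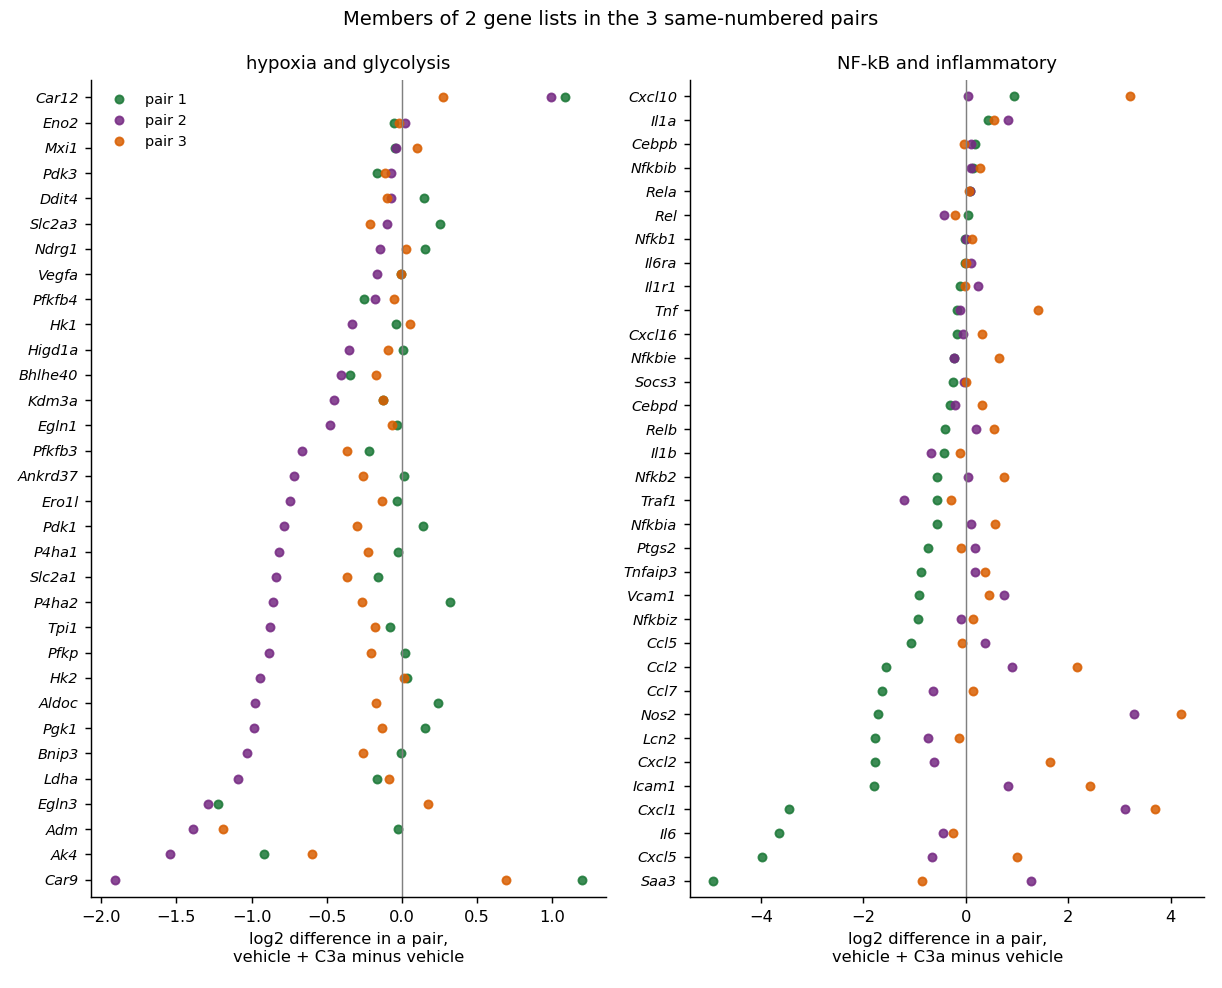
Log2 differences between vehicle with C3a and vehicle in pair 1 (green), pair 2 (purple) and pair 3 (orange) for the 32 members of the hypoxia list (left) and the 34 of the inflammatory list (right); the horizontal scales differ. On the left, pair 2 lies furthest below 0 for most genes (median -0.73), and on the right pair 1 lies below 0 for 28 genes while Nos2 and Cxcl1 lie above 3 in pairs 2 and 3.

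Stress and survival genes belong to routes that C3a has been tied to in beta cells, and 0 of them were called. Their counts at an unadjusted p under 0.05 stand beside 3.24% of all genes. Of 33 integrated stress response genes 0 were higher and 1 lower at an unadjusted p under 0.05 (median -0.02), the lower one being the lipoprotein receptor gene Vldlr at -0.18 ± 0.05. Of 30 ER chaperone and degradation genes 0 were higher and 1 lower (median -0.01), and the interval lay within 0.5 for all 30. Proapoptotic genes had 0 higher and 2 lower of 29 (median 0.00), Bnip3l at -0.16 ± 0.06 and Pmaip1 at -0.56 ± 0.25. Antiapoptotic genes had 0 higher and 1 lower of 16 (median -0.01). Of 28 antioxidant genes 1 was higher and 1 lower, and of 17 heat shock genes 1 was higher.

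Dual-specificity phosphatases switch off MAP kinases. Of 20 tested 1 was higher and 2 lower at an unadjusted p under 0.05, with a median of -0.04. Dusp19 had 23.9, 18.5 and 18.1 CPM in vehicle and 19.9, 16.1 and 16.3 CPM with C3a (-0.21 ± 0.07). Dusp4 differed by -0.22 ± 0.09 and Dusp5 by 0.13 ± 0.05. Dusp26, which has been studied as a link between C3a and beta cell identity, had 21.9, 19.1 and 17.5 CPM in vehicle and 20.9, 20.99 and 14.6 CPM with C3a. The groups overlapped, pair 2 differed from the other pairs in sign, and the log2 difference was -0.06 ± 0.07 (SE; 95% interval -0.22 to 0.11).

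Of 41 nuclear genes for oxidative phosphorylation 4 were higher and 0 lower at an unadjusted p under 0.05: Cox6a1 (0.13 ± 0.05), Ndufv2 (0.13 ± 0.05), Uqcrc1 (0.09 ± 0.04) and Ndufs8 (0.12 ± 0.05). Over all genes tested 1.67% were higher and 1.57% lower at that limit. Of the 41, 14 had a negative estimate, where 8116 of all 15794 genes tested did. The median of the 41 was 0.02, and by pair it was 0.04, -0.04 and 0.03. Of 13 genes encoded in the mitochondrion 12 had a negative estimate with a median of -0.14, but the pairs went -0.29, 0.16 and -0.26, and 0 were at an unadjusted p under 0.05. Immediate early and cAMP-responsive genes, a usual first response to a G protein-coupled receptor, had 1 of 33 higher and 2 lower, Nr4a1 at 0.19 ± 0.08, Fosl2 at -0.22 ± 0.08 and Sik1 at -0.20 ± 0.08. Cholesterol synthesis had 0 of 25 genes higher and 2 lower (Pmvk and Sc5d), fatty acid synthesis 0 of 20 higher and 2 lower (Scd2 and Thrsp), and fatty acid oxidation 0 of 33 in either direction. Proliferation genes had 1 higher of 34, the spindle checkpoint kinase gene Bub1b at 0.44 ± 0.16.

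Marker lists of other cells in the islet preparation gave no member past the threshold. Exocrine acinar enzymes had a positive estimate in 31 of 33 genes, where 7678 of all 15794 genes had one. The acinar median was 0.13, the highest of the lists. By pair the median was 0.38, 0.07 and 0.05, and the summed level was 4513, 6541 and 3726 CPM in vehicle and 5865, 6730 and 3895 CPM with C3a, so libraries of 1 condition differed more than the conditions. The median was 0.40 without vehicle replicate 2 and -0.01 without C3a replicate 2. Alpha cell markers had 1 of 14 higher and 1 lower at an unadjusted p under 0.05, the lower one being Ttr (-0.13 ± 0.05), and pancreatic polypeptide cell markers 1 of 7 lower (Etv1, -0.18 ± 0.06). Delta, duct, endothelial, fibroblast, macrophage, lymphocyte and Schwann cell lists had 0 genes at an unadjusted p under 0.05. Endothelial markers had a median of -0.07 and macrophage markers, the cells that carry most C3ar1 in many tissues, -0.003.

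**Figure D4:**
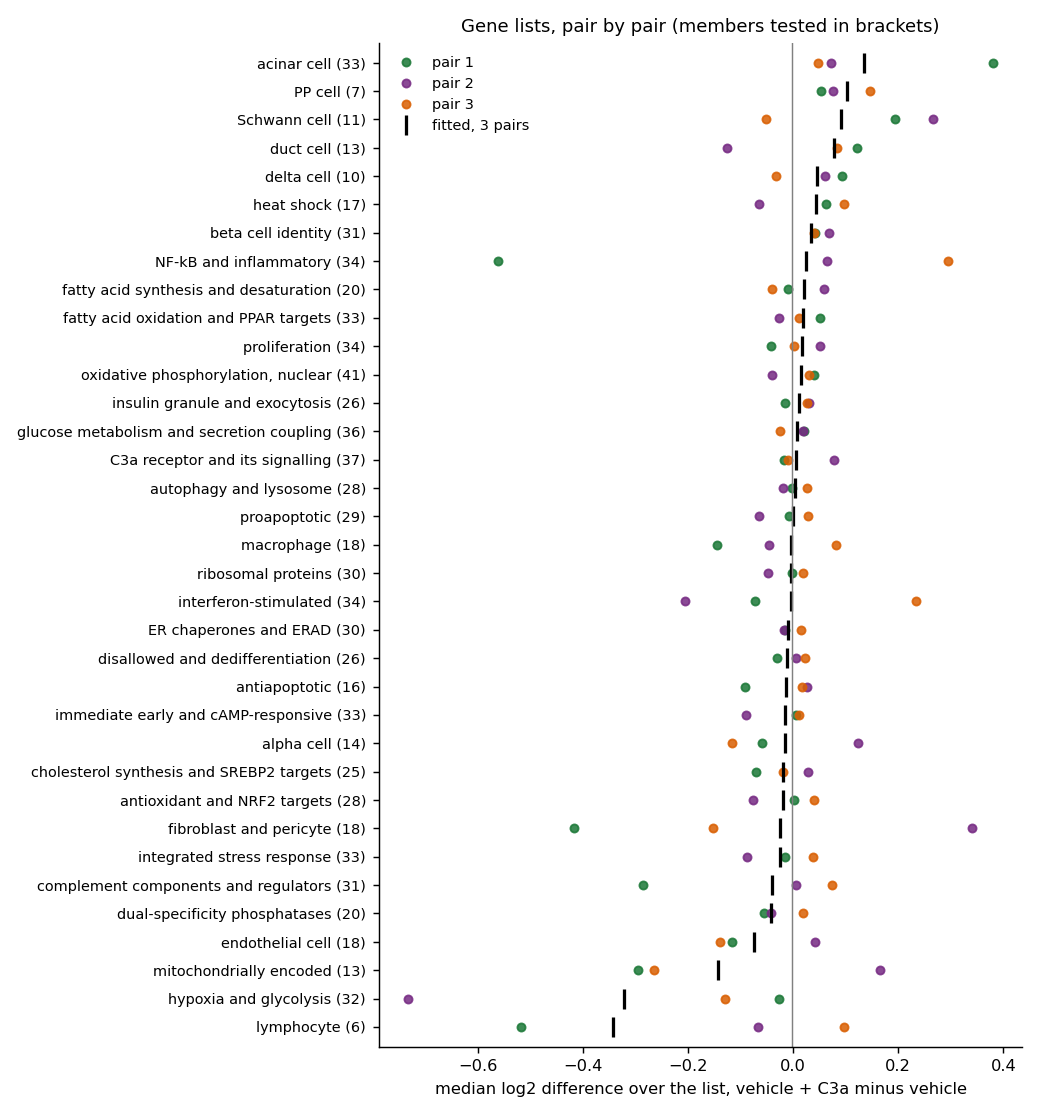
Median log2 difference of each of 35 gene lists in pair 1 (green), pair 2 (purple) and pair 3 (orange). The black bar is the median of the fitted values, and the number of tested members is in brackets. The grey line marks the fitted median over all genes tested, -0.003. Most lists lie near 0, pair 2 of the hypoxia list lies at -0.73, and the inflammatory list spreads from -0.56 to 0.29.

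The same contrast in palmitate islets, palmitate with C3a against palmitate, asks whether these small differences recur in other libraries. These 6 libraries have the replicate numbers of the vehicle pairs and share no library with them. There too edgeR's test called 0 genes (0%), with 568 (3.6%) at an unadjusted p under 0.05, and the difference between the C3a effects called 0 (332 genes, 2.1%, unadjusted). Over all genes 55.9% had the same sign in both contrasts, and 67.5% of the 511 genes from vehicle islets did. At an unadjusted p under 0.05 in both contrasts with the same sign there were 30 genes. They made up 5.87% of the vehicle list and 5.28% of the palmitate list. Of all 15794 genes, 378 had the same sign in both contrasts and an unadjusted p under 0.05 in palmitate islets. Both contrasts come from the same fit of all 12 libraries and share a variance estimate for each gene. A gene with a low estimate can therefore have a small p in both, and the part of this in the overlap was not tested. Pfkfb3, among the 30, differed by -0.43 ± 0.11 in vehicle and -0.42 ± 0.11 in palmitate islets. In palmitate islets it had 39, 55.7 and 34.8 CPM without and 27.3, 46.4 and 24.5 CPM with C3a. Rhbdf1 differed by 0.33 ± 0.08 and 0.23 ± 0.08, and the cholesterol synthesis gene Pmvk by -0.17 ± 0.05 in both. The nuclear pore gene Seh1l gave -0.13 in both, and Cflar, an inhibitor of caspase-8, gave -0.10 and -0.09. Ahnak, in contrast, differed by -0.33 ± 0.07 in vehicle islets and 0.003 ± 0.07 in palmitate islets, and Igfbp3 by -0.21 ± 0.06 and 0.09 ± 0.06, neither difference between the contrasts passing edgeR's adjusted test. When both C3a effects were averaged, an analysis chosen after seeing the data, 766 genes (4.85%) were at an unadjusted p under 0.05, 0 were called and the lowest edgeR adjusted p was 0.0543.

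**Figure D5:**
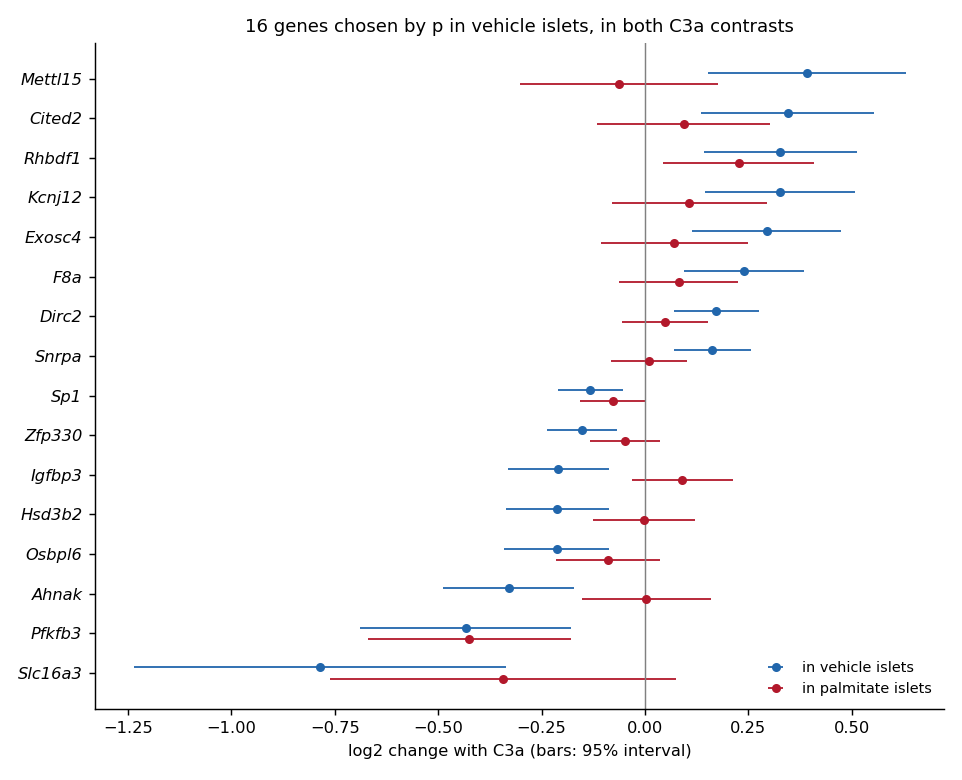
Log2 difference with C3a in vehicle islets (blue) and in palmitate islets (red) with 95% intervals for the 16 genes chosen by p in vehicle islets, whose blue values are therefore a selection. Pfkfb3 and Rhbdf1 have red intervals clear of 0, and the red values of Ahnak, Hsd3b2 and Snrpa sit near 0.

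The gene models with the 3 lowest adjusted p-values were predicted genes, looked at after their values were seen. Gm21985 (ENSMUSG00000096764.1) is a read-through model on chromosome 2 that shares exons with Katnbl1. It had 30, 60 and 38 counts in the vehicle libraries and 0, 0 and 3 counts with C3a. In palmitate islets it had 22, 28 and 19 counts, and 0, 0 and 0 with C3a. All 6 libraries without C3a were therefore above all 6 with it, whereas Katnbl1 overlapped between the groups: it had 15.6, 14.98 and 15.6 CPM in vehicle and 15.2, 14.6 and 14.3 CPM with C3a. edgeR's adjusted p for Gm21985 was 0.427 in vehicle islets and it was not called in palmitate islets either. DESeq2 called it in both (adjusted p = 0.00211 and 0.00165), and limma-voom called it in palmitate islets (adjusted p = 0.0467). The counts are low and the model shares exons with annotated genes, so the assignment of reads to it is uncertain. Gm15542, a processed pseudogene inside the proteasome subunit gene Psmd13, had 12.7, 9.83 and 9.03 CPM in vehicle and 7.36, 3.49 and 5.26 CPM with C3a (-1.03 ± 0.15, edgeR adjusted p = 0.427), and -0.50 ± 0.15 in palmitate islets. Psmd13 itself differed by -0.04 ± 0.05. Gm21596, another processed pseudogene, had 2.03, 3.55 and 6.78 CPM in vehicle and 2.84, 8.79 and 12.2 CPM with C3a (0.93 ± 0.16, edgeR adjusted p = 0.495). These 3 were among the 5 that DESeq2 called in vehicle islets. The others were Gm28043 and Zbed6, a transcription factor gene that lies within an intron of another gene. Zbed6 had 38.96, 28.8 and 21.9 CPM in vehicle and 24.7, 18.1 and 12.6 CPM with C3a (DESeq2 adjusted p = 0.0379). In palmitate islets Zbed6 had 20.6, 26.1 and 11.2 CPM without and 29.02, 18.5 and 11.7 CPM with C3a, so the groups overlapped there.

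Testing transcripts in place of genes, also chosen after seeing the data, called 0 of 41537 with edgeR and left 1313 at an unadjusted p under 0.05. Zfp672, a zinc finger gene, had transcripts that went opposite ways. ENSMUST00000057836 had 9.70, 9.57 and 8.62 CPM in vehicle and 26.7, 14.8 and 16.2 CPM with C3a, while ENSMUST00000064786 had 12.8, 7.78 and 9.93 CPM in vehicle and 3.21, 2.71 and 5.31 CPM with C3a. For neither transcript did the groups overlap. In palmitate islets the first had 14.1, 9.09 and 11.6 CPM without and 18.9, 13.8 and 15.7 CPM with C3a, and the second 7.996, 8.79 and 8.94 CPM without and 4.99, 6.33 and 5.19 CPM with C3a. The estimates had the same signs as in vehicle islets, the groups overlapped for the first transcript, and they did not for the second. Estimated counts of transcripts that share exons depend on how reads are divided among them, and the part of that step in the result was not tested.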

How the data were processed

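Messenger RNA was sequenced, with a stranded TruSeq kit per the labels. The authors deposited 1 table of estimated counts per transcript, as whole numbers; kallisto and DESeq2 and build GRCm38 are named in the submitters' processing notes, with no role or version, and the strand setting is not given in the sources used here. Of 71524 transcripts, 69942 matched GENCODE M21 and were summed to 22141 genes and rounded; unmatched rows held 0.617 to 0.66% of the counts of the 6 libraries. edgeR 4.0.16 (R 4.3.3) was fitted to all 12 libraries with TMM scaling, filterByExpr and robust quasi-likelihood, with group and replicate number as terms and 6 residual degrees of freedom; genes were called at a Benjamini-Hochberg adjusted p of 0.05. CPM were TMM-scaled; per-pair differences used log2 CPM with a prior count of 2. The code was tested on simulated data.

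The replicate number is the sample number in the titles and is shared by all groups. The date tags are in the sample descriptions, and replicate 1 carries none. Deviations of same-numbered libraries from their group means correlated at 0.395 or more in each of 18 pairs. No libraries agreed within sampling noise (lowest chi-square per degree of freedom 7.40 over 66 pairs). The members and gene lists were chosen with earlier results of these data known. Named genes were the 8 per direction with the smallest p at 5 CPM or more and 1 direction in all pairs, the smallest p-values of each list, and set hormone and receptor genes. Alternatives were DESeq2 1.42.0, limma-voom 3.58.1, other scaling and filters, no block, batch 2 alone, the 6 libraries alone and leaving out libraries. Some items are not reported here.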

Additional observations from a re-analysis of the deposited data

Results flagged for a closer look

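The beta cell identity list had opposite signs in the 2 settings. Its median log2 difference with C3a was 0.03 in vehicle islets, positive in all 3 pairs, and -0.02 in palmitate islets, negative in all 3 pairs. The gap, palmitate minus vehicle, was -0.0516, and this difference was not tested.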

How the results depend on the processing

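In vehicle islets 0 genes were called in the reported fit, and 5 by DESeq2, 2 with no low-count filter, 6 in batch 2 alone and 7 when only the 6 libraries were fitted. The pair called with no filter, Igkv12-89 and Ighv1-55, had 1194 and 938 counts in vehicle replicate 1 and at most 1 in any other library. Leaving out libraries gave 0 to 6, with 3 without vehicle replicate 1 and 1 without C3a replicate 1. The 6 came without replicate 1, which is the same fit as batch 2 alone. The 3 without vehicle replicate 1 were Gm7336, Gm10359 and Gm12671, whose counts are identical in every library. They were also among the 6 of batch 2 alone. In palmitate islets DESeq2 called 1 and limma-voom 1 (Gm21985 in both), and batch 2 alone 1 (Adm), and leaving out libraries gave 0 to 1. The difference between the C3a effects gave 1 in batch 2 alone and 0 to 3 when libraries were left out. The cause was not tested. The fit without the replicate block, with sequencing batch as a term, called 0 in each of these comparisons and changed none of these calls. Batch 2 alone also moved Nos2 past the threshold (log2 3.97, edgeR adjusted p = 0.0162). The fit of the 6 libraries alone was not run for the difference between the effects. For the named genes and list medians under the alternatives, a shift was set against the standard deviation of the 3 pair values. Of these values, 3204 shifted by less than that and 79 by more, none of them past the threshold. The 2 that passed it were both Nos2 without replicate 1, a fit listed under 2 names. That spread can be wide: the acinar median counted as within it although its sign turned. Signs of uncalled values did turn: under at least 1 alternative this happened for 27 of 35 list medians and 12 of 159 other values, among them C3ar1 and Dusp26. The lymphocyte and acinar medians turned without C3a replicate 2 (to 0.04 and -0.01), the complement median without vehicle replicate 1 (to 0.05), and the inflammatory median ran from -0.22 to 0.18. Within batch 2, deviations of same-numbered libraries correlated at 0.080 to 0.185 over 6 pairs. Depth limits genes under 1 CPM, where the interval reached a median of 1.09 to either side. With 3 libraries per group and 1 of them in another batch, smaller effects could not be told from 0.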
